A study of Mus musculus with 2 samples.

Results

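The ligands of the vascular endothelial growth factor (VEGF) and platelet-derived growth factor (PDGF) family, together with the PDGF receptors, were examined in mouse liver mesothelial cells. The set comprised 9 genes: the VEGF ligands Vegfa, Vegfb and Vegfc, the PDGF ligands Pdgfa, Pdgfb, Pdgfc and Pdgfd, and the receptors Pdgfra and Pdgfrb. Every probe set that the platform annotation assigns to 1 of these symbols was taken, which gave 20 of the 45037 probe sets other than controls, and 9 of 18193 genes. Probe sets were assigned by annotated symbol, updated through RefSeq gene numbers, and their probe sequences were not checked.

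Mesothelial cells, the sheet that covers the liver, had been sorted after collagenase digestion of C57BL/6 livers. The adult sample came from 8-week-old mice and was sorted with an antibody to Mesothelin. The embryonic sample came from embryonic day 12.5 (E12.5) and was sorted with an antibody to PCLP1, the product of Podxl. From each, 10 ng of total RNA was amplified over a pair of synthesis cycles and hybridised to 1 Affymetrix array. With 1 array per stage there were no replicates, so no difference below could be set against a spread between samples, and no p-value was computed. Age, the antibody used for sorting and the array itself differ together and cannot be told apart.

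VEGF and PDGF proteins are secreted, disulphide-linked dimers of 1 structural family that act through receptor tyrosine kinases. VEGF-A drives growth of blood vessels through Kdr and Flt1, VEGF-C and VEGF-D drive growth of lymphatic vessels through Flt4, and VEGF-B binds Flt1. PDGF-A and PDGF-C act mainly through PDGF receptor alpha, PDGF-B through both receptors and PDGF-D mainly through receptor beta, and these signals recruit fibroblasts, pericytes and hepatic stellate cells. PDGF-C and PDGF-D are made as latent proteins whose CUB domain has to be cut off by a protease before the receptors can bind.

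The promoters of 3 genes are shown because Pdgfc and Vegfa were far lower in adult cells while Pdgfd went the other way. Sequences are RefSeq's for the GRCm38.p6 assembly, where 7 of the 9 genes matched an entry and 5 had a window that lies outside the annotated gene. Capitals mark GGGCGG (the GC box bound by Sp1-type factors), TATAAA (the TATA box) and ACGTG (the core of the site bound by hypoxia-inducible factors), each searched on both strands. The Pdgfc window is chr3:81036166-81036415 on the plus strand. The Vegfa window is chr17:46032378-46032627 on the minus strand, and that of Pdgfd is chr9:6168236-6168362 on the plus strand.
Pdgfc promoter: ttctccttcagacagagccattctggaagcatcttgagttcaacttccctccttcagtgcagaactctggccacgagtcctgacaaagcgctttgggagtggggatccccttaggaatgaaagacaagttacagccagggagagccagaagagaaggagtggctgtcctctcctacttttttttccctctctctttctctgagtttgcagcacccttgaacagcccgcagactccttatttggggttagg
Vegfa promoter: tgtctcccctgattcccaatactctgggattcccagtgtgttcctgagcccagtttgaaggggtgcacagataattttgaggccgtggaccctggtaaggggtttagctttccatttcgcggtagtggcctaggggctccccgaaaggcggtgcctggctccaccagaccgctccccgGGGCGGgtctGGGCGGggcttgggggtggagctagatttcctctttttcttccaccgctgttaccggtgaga
Pdgfd promoter: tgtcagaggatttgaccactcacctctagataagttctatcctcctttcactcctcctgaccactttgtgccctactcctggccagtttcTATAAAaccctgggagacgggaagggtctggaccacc

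The Vegfa window held 2 GC boxes, 72 to 67 and 62 to 57 bases before the first base of the gene. Vegfb and Vegfc, whose windows are not printed, held 4 and 2, of which a pair in Vegfb abut, and no GC box was found in the Pdgfc and Pdgfd windows. Of all 32851 windows of 250 bases, 32.7% held a GC box, and of those cut to their first 127 bases 13.7% did. The Pdgfd window, 127 bases long, held 1 TATAAA, 37 to 32 bases before the first base of the gene. TATAAA was found in 12.4% of all windows of 250 bases and in 6.32% of those cut to their first 127 bases. ACGTG was found in none of the 5 windows, against 16.6% of all windows of 250 bases and 7.77% of those cut to their first 127 bases. In a 250-base window such as that of Vegfa, the first 127 bases lie further from the gene than the Pdgfd window does. The shares of cut windows therefore do not compare like positions. Sites further upstream were not searched. GC content was 76.4% for Vegfb, 71.6% for Vegfc, 59.2% for Vegfa, 51.2% for Pdgfd and 50.8% for Pdgfc, where the median window had 52.4%. CG dinucleotides numbered 26 in Vegfb, 30 in Vegfc, 11 in Vegfa and 3 in Pdgfc, and the median window held 6. These matches describe letters in short windows and show no binding.

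Signals are linear intensities. The medians of the raw signals were 29.9 on the adult array and 44.0 on the E12.5 array, and adult signals were therefore divided by the ratio of these medians, 0.680, as in the authors' own ratio. All adult signals given here are scaled in this way. Detection on an array meant a present call there, which held for 52.2% of probe sets in adult and 51.9% at E12.5. Where a probe set was detected on 1 array alone, its fold is given as a lower bound, with the words at least. On the array without detection it was set to its measured signal or the lowest signal with a present call there, whichever was higher. Those lowest signals were 5.84 in adult and 4.57 at E12.5. Absent calls also occurred at higher signals, such as 111 in adult for the Vegfa probe set 1420909_at. These bounds are therefore not guaranteed minima. Signals of different probe sets depend on their probes and are not compared with each other. Sums over a list of markers add such signals, so a few bright probe sets can carry them, and they do not measure how many cells were present.

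Most members had lower signals in adult than at E12.5, and Pdgfd was the exception past 2-fold. With each gene represented by its brightest detected probe set, 1 of 9 genes was at least 2-fold higher in adult, against 16.9% of all 12801 genes detected on at least 1 array. Towards E12.5, 5 of 9 passed 2-fold, namely Vegfa, Pdgfb, Pdgfc, Pdgfra and Pdgfrb, against 29.1% of all genes. The remaining 3, Vegfb, Vegfc and Pdgfa, lay within 2-fold. The median log2 difference, adult minus E12.5, was -1.01 over the 9 members and -0.35 over all detected genes. Of the calls past 2-fold, Pdgfb and Pdgfrb depended on the scaling. With quantile normalization, with detected probe sets centred on 0 or with trimmed means set equal, 3 genes were left at E12.5. Without scaling, Vegfb (-1.49) and Vegfc (-1.28) passed 2-fold towards E12.5 as well. Over probe sets, 19 of 20 were detected on at least 1 array, 15 of them on both and 4 at E12.5 alone. Over the whole array 26894 probe sets were detected on at least 1 array, with 23506 present in adult and 23364 at E12.5. Among the 19, 2 passed 2-fold towards adult, as 18.7% of all detected probe sets did, 11 towards E12.5, as did 26.5% of all, and 6 lay within it. Those 4 passed the detection filter through the E12.5 array alone, so their direction follows in part from the filter.

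**Figure D1:**
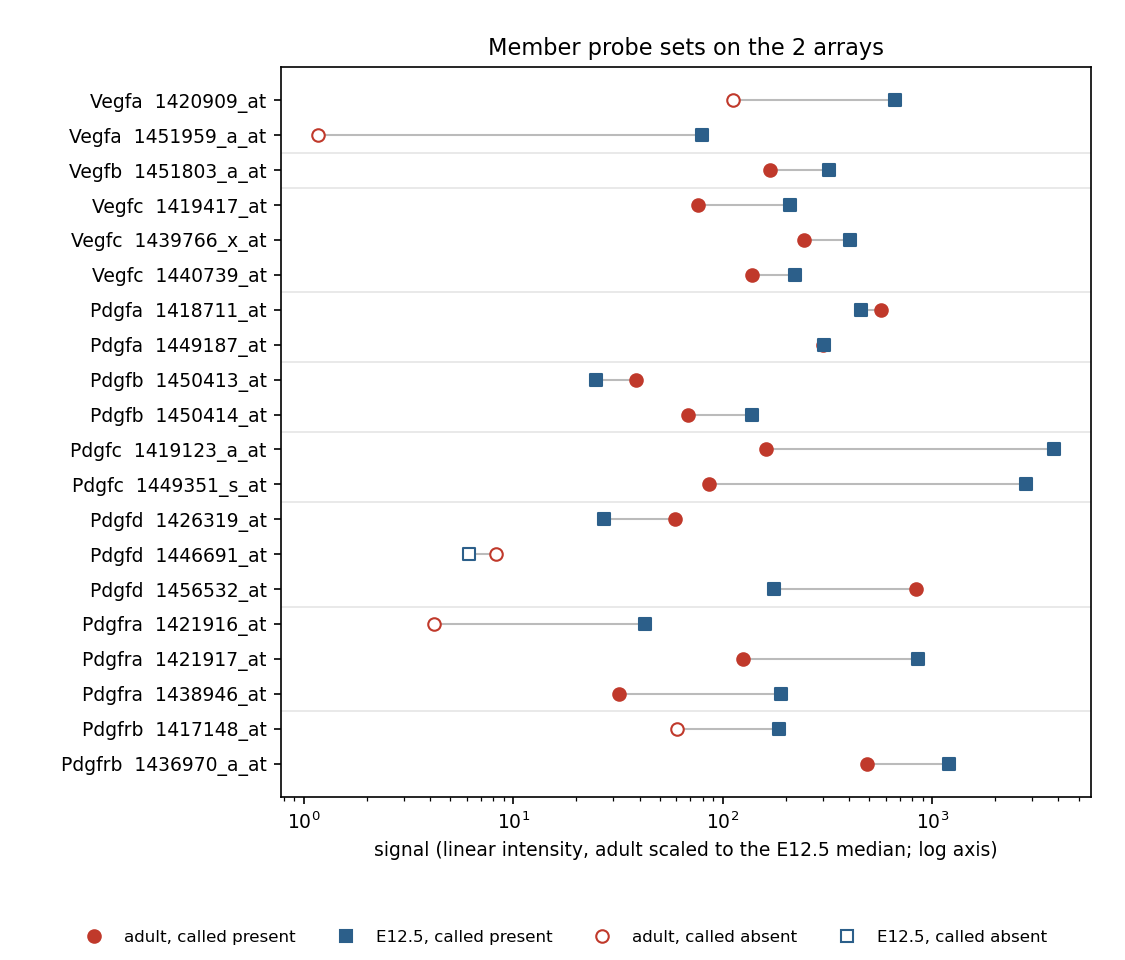
Signal of each of the 20 member probe sets on the adult array (circles) and the E12.5 array (squares), on a log axis. Filled symbols were called present and open ones absent. The widest gaps among probe sets present on both arrays are those of Pdgfc, with 160 in adult against 3830 at E12.5 for 1419123_a_at, and the squares lie left of the circles for the Pdgfd probe sets.

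Among the VEGF ligands, Vegfa showed the largest difference. Vegfa (Entrez gene 22339), the principal vascular growth factor of the family, had a signal of 111 in adult, called absent, against 660 at E12.5, called present, for probe set 1420909_at. The adult signal was thus at least 5.94-fold lower. The other Vegfa probe set, 1451959_a_at, gave 1.17 in adult, again called absent, against 79.7 at E12.5, at least 13.7-fold lower. Both probe sets were detected at E12.5 alone, so their shared direction and calls follow in part from the detection filter. Both folds are lower bounds in the sense given above.

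Vegfb (Entrez gene 22340), a ligand linked mainly to survival and lipid handling rather than vessel growth, was measured by 1 probe set with 168 in adult and 321 at E12.5. Its log2 difference of -0.94 lay within 2-fold. Vegfc (Entrez gene 22341), the main lymphatic growth factor, had 3 probe sets, all present on both arrays and all lower in adult. The brightest, 1439766_x_at, gave 244 in adult and 404 at E12.5, a log2 difference of -0.73. Probe set 1440739_at gave 138 in adult and 221 at E12.5, and 1419417_at gave 76.0 in adult and 210 at E12.5, 2.76-fold lower in adult. The Vegfc probe sets thus ran from -1.47 to -0.68 on the log2 scale, on either side of 2-fold.

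The PDGF ligands went in different directions. Pdgfc (Entrez gene 54635), a latent ligand expressed in embryonic epithelia, had the largest difference of the members detected on both arrays. Its probe set 1419123_a_at gave 160 in adult and 3830 at E12.5, 23.9-fold lower in adult. Probe set 1449351_s_at gave 85.4 in adult and 2805 at E12.5, 32.8-fold lower in adult. Both were called present on both arrays, so Pdgfc was detected in adult cells as well.

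Pdgfd (Entrez gene 71785), the other latent PDGF, was higher in adult. Probe set 1456532_at, which the platform annotation assigns to Pdgfd and the authors' deposited table leaves unnamed, gave 839 in adult and 175 at E12.5, 4.79-fold higher in adult. Probe set 1426319_at gave 59.0 in adult and 27.1 at E12.5, 2.17-fold higher in adult and at low signal. The remaining one, 1446691_at, was called absent on both arrays, with 8.21 in adult and 6.15 at E12.5, and carries no direction. The 4.79-fold value thus rests on the probe set that only the later annotation names, and the named one lay just past 2-fold.

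Pdgfa (Entrez gene 18590), the classical ligand of receptor alpha, was near equal on the arrays. Probe set 1418711_at gave 567 in adult and 458 at E12.5, a log2 difference of 0.31, and 1449187_at gave 301 in adult and 303 at E12.5. The sign for Pdgfa turned to -0.25 without scaling, so no direction is given. Pdgfb (Entrez gene 18591), the ligand that recruits pericytes and is stored in platelets, had low signals and probe sets that disagreed. Probe set 1450414_at gave 68.4 in adult and 138 at E12.5, 2.02-fold lower in adult, while 1450413_at gave 38.6 in adult and 24.8 at E12.5, 1.56-fold higher in adult. Averaged over both, the Pdgfb difference was -0.19.

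Both PDGF receptors were lower in adult in each of their probe sets. Pdgfra (Entrez gene 18595), the receptor of mesenchymal progenitors and fibroblasts, gave 125 in adult and 854 at E12.5 with probe set 1421917_at, 6.81-fold lower in adult. Probe set 1438946_at gave 32.1 in adult and 190 at E12.5, 5.91-fold lower in adult. The dimmest, 1421916_at, gave 4.18 in adult, called absent, and 42.3 at E12.5, at least 7.24-fold lower in adult. The Pdgfra probe sets detected on both arrays lay at -2.77 and -2.56 on the log2 scale.

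Pdgfrb (Entrez gene 18596), the receptor of pericytes and stellate cells, gave 485 in adult and 1199 at E12.5 with probe set 1436970_a_at, 2.47-fold lower in adult and present on both arrays. Probe set 1417148_at gave 60.2 in adult, called absent, and 186 at E12.5, at least 3.09-fold lower in adult. The difference of Pdgfrb, -1.31 on the log2 scale, was -0.95 after quantile normalization and so came to lie within 2-fold. As a yardstick for such gaps, probe sets of the same gene detected on both arrays differed with a pooled SD of 0.62 on the log2 scale, over 4279 genes. This SD measures how far probe sets of 1 gene disagree on the same arrays, and not the error between samples.

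**Figure D2:**
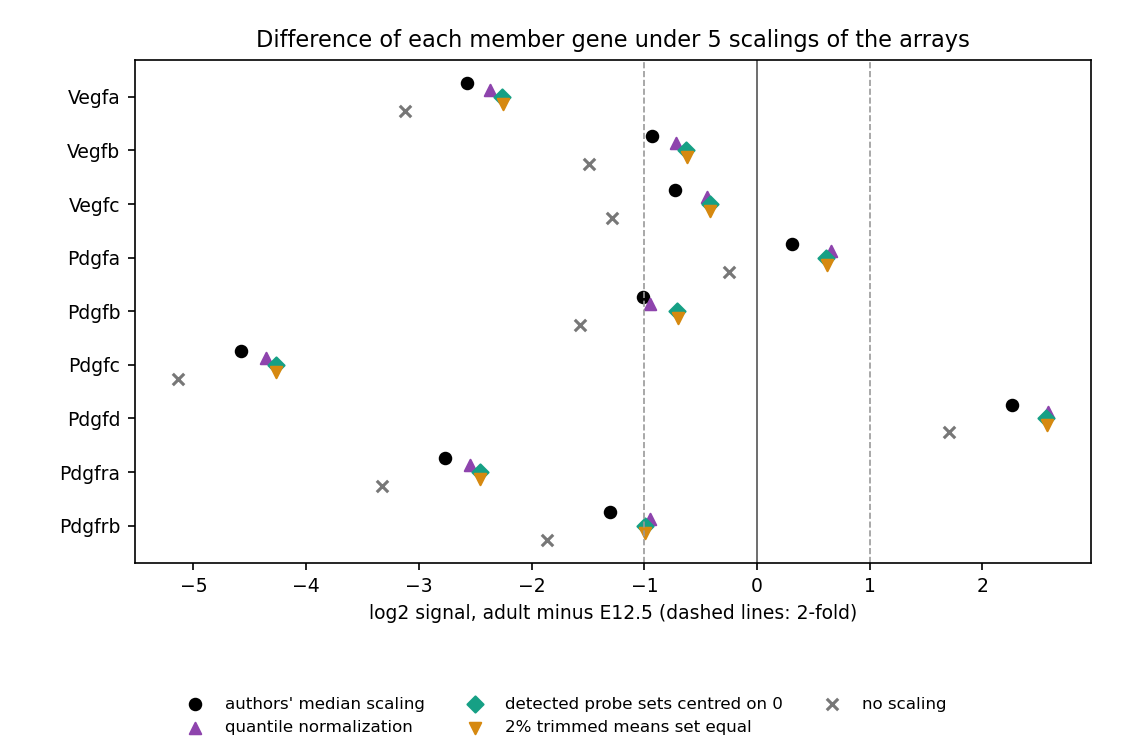
Log2 difference, adult minus E12.5, of the 9 member genes under 5 ways of scaling the arrays, with dashed lines at 2-fold. Vegfa, Pdgfc, Pdgfra and Pdgfd keep their side of the 2-fold lines under each scaling. Pdgfb and Pdgfrb cross the line at -1, Vegfb and Vegfc cross it without scaling, and Pdgfa crosses 0.

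The partners of these ligands went in both directions, as did genes as a whole. The list of the remaining VEGF family ligands and the VEGF receptors held 7 genes, all detected, of which 2 passed 2-fold towards adult and 2 towards E12.5. Over all detected genes 16.9% passed 2-fold towards adult and 29.1% towards E12.5, and with 7 genes no departure from these shares is read. The median of the list was 0.30 and turned to -0.25 without scaling. Vegfd (Entrez gene 14205), the other lymphatic ligand, was higher in adult in all 3 probe sets. Probe set 1449528_at gave 324 in adult and 27.3 at E12.5, where it was called absent, at least 11.8-fold higher in adult. The ligands of Flt4 thus stood apart, with Vegfd higher in adult and Vegfc lower in adult in each probe set, by less than 2-fold in 2 of 3. Pgf, a placental ligand of Flt1, gave 117 in adult and 288 at E12.5, 2.45-fold lower in adult, and its call at 2-fold was lost with detected probe sets centred on 0.

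Kdr (Entrez gene 16542), the main signalling receptor of VEGF-A, gave 3857 in adult and 400 at E12.5, 9.65-fold higher in adult, where its ligand was lower. Nrp1, a co-receptor of VEGF-A, was lower in adult in all 4 probe sets, with 1028 in adult and 2946 at E12.5 for the brightest. The other receptors lay within 2-fold by their brightest probe set. Flt1, which also serves as a soluble trap for VEGF, gave 101 in adult and 64.5 at E12.5, and Flt4 gave 871 in adult and 706 at E12.5, each with probe sets in both directions. These Flt4 values come from 1444052_at, which the authors' deposited table leaves unnamed. The Flt4 probe set named there, 1421442_at, gave 67.7 in adult and 73.4 at E12.5. Nrp2, a co-receptor of VEGF-C, gave 414 in adult and 492 at E12.5, while its probe set 1447343_at gave 127 in adult and 3.09 at E12.5, at least 27.8-fold higher in adult. The Nrp2 probe sets therefore do not settle a direction.

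Cells of other types that express these receptors could be part of either sort, and fewer cells of a type and less RNA per cell cannot be told apart in such bulk samples. For the marker counts that follow, 16.9% of all detected genes passed 2-fold towards adult and 29.1% towards E12.5. Endothelial cells express Kdr, and of 18 listed endothelial markers 16 were detected, 9 passed 2-fold towards adult and none towards E12.5, and their summed signal was 13652 in adult and 3275 at E12.5. The largest differences were those of the phosphatase Ptprb (18.2-fold), the Fc receptor Fcgr2b (at least 13.5-fold), Esam (8.93-fold) and the scavenger receptor Stab2 (6.99-fold), each higher in adult. By their brightest probe sets Tek (-0.90 on the log2 scale), Cdh5 (-0.23), Tie1 (-0.13) and Emcn (-0.05) were lower in adult, within 2-fold. Pecam1 and Erg were detected on neither array. Without scaling, 8 endothelial markers passed 2-fold towards adult and 1 towards E12.5. The part of such cells in the Kdr value was not tested. Stellate cells, pericytes and smooth muscle express Pdgfrb, and of their 15 detected markers (16 listed) 3 passed 2-fold towards adult and 6 towards E12.5. Their summed signal was 12762 in adult and 7968 at E12.5, while their median log2 difference was -0.55. Ecm1 (5102) and Acta2 (3811) had the highest adult signals in that sum. Cygb (at least 49.3-fold) and Ecm1 (3.80-fold) were higher in adult, and Reln (at least 8.06-fold) and Hgf (at least 7.54-fold) at E12.5. The balance of this list depended on the scaling, with 5 towards adult and 4 towards E12.5 with detected probe sets centred on 0 or trimmed means set equal, and 2 and 8 without scaling. The part of such cells in the receptor values was not tested.

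Platelets and their precursors carry PDGF ligands, and of 8 detected markers of these cells (11 listed) 1 passed 2-fold towards adult and 7 towards E12.5, with a summed signal of 1202 in adult and 16196 at E12.5. Pf4 (23.1-fold), Gp1bb (21.7-fold), Gp9 (at least 13.3-fold) and Ppbp (12.3-fold) had the largest differences, all higher at E12.5. Hepatocytes make VEGF-A, and 10 of 10 detected hepatoblast and hepatocyte markers (11 listed) passed 2-fold towards E12.5. Their summed signal was 2743 in adult and 29726 at E12.5, and the bounds of Afp (at least 562-fold) and Fgb (at least 30.7-fold) led, before Apob with 16.9-fold and Fgg with 15.1-fold. Of erythroid markers 8 of 8 detected (11 listed) were higher at E12.5 as well, 7 of them detected there alone, with a summed signal of 271 in adult and 3976 at E12.5. These were led by Hbb-y (at least 55.2-fold), Gata1 (at least 37.1-fold), Hbb-bh1 (at least 29.7-fold) and Klf1 (at least 26.1-fold). Macrophage and leukocyte markers come from cells that secrete both VEGF and PDGF proteins. They were higher in adult in 14 of 14 detected genes (15 listed), 8 of them detected there alone. Such genes, like the 7 erythroid ones, were counted because of 1 array, so their direction is not an independent result. The summed signal of the macrophage list was 30005 in adult and 998 at E12.5. Clec4f (at least 788-fold), Vsig4 (at least 284-fold), Cd5l (at least 99.9-fold) and C1qc (at least 49.1-fold) led that list, each detected in adult alone. The part of these cells in the ligand values was not tested.

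Mesothelial markers were detected on both arrays in all 13 listed genes, 6 of which passed 2-fold towards adult and 1, the sorting antigen gene Podxl, towards E12.5. Their summed signal was 86906 in adult and 38066 at E12.5. Apart from the sorting antigen gene Msln (244-fold), Muc16 (7.58-fold), Gpm6a (5.07-fold) and Lrrn4 (4.53-fold) were highest in adult relative to E12.5. The array's control probe sets for the 3' end of Gapdh were 6.81 times as bright as those for its 5' end in adult and 2.07 times at E12.5. For beta-actin the same ratio was 3.47 in adult and 1.93 at E12.5. This sign of RNA or product length moved with stage, and its part in the member values was not tested.

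**Figure D3:**
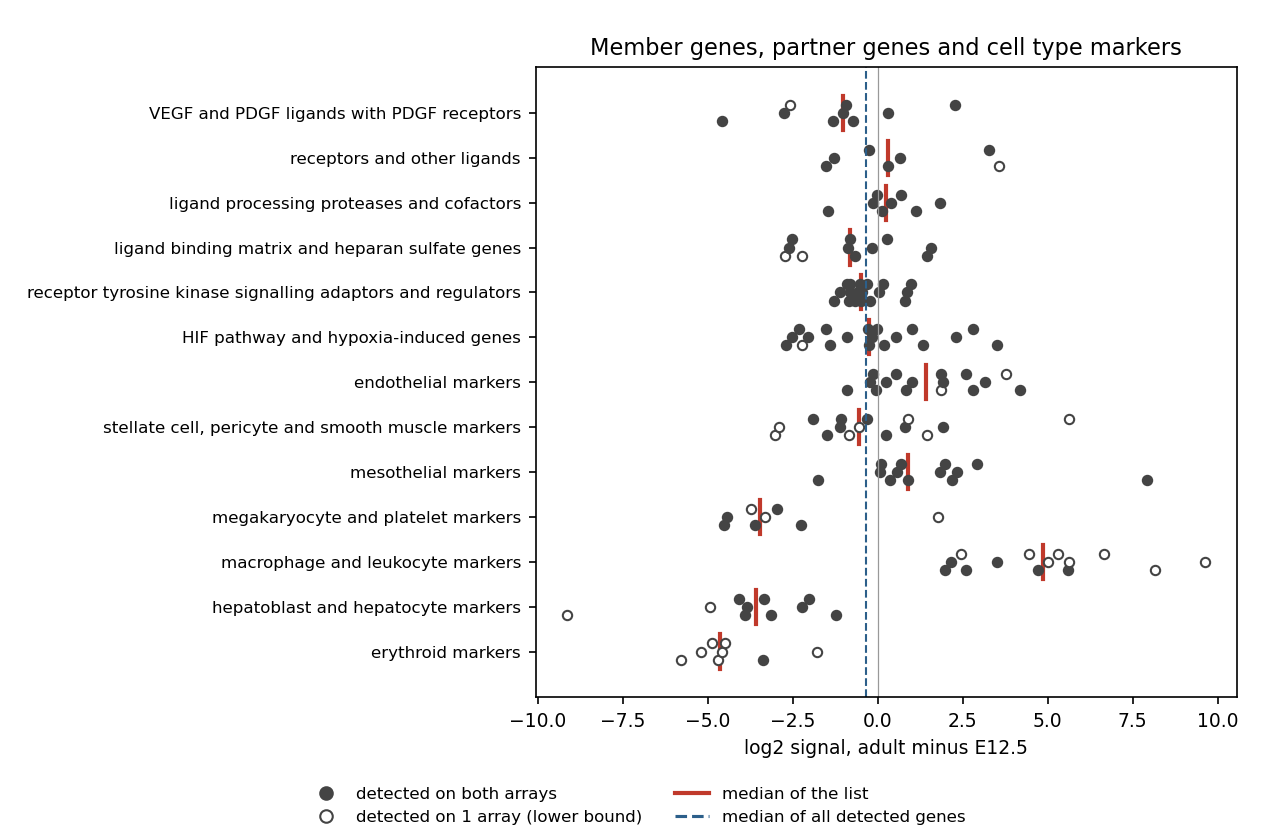
Log2 difference, adult minus E12.5, of the member genes, of their partner genes and of cell type markers, 1 point per detected gene. Red bars are list medians and the dashed line is the median of all detected genes; filled points were detected on both arrays and open points, detected on 1 array, are lower bounds. Endothelial and macrophage markers lie mostly to the right of 0, and platelet, hepatoblast and erythroid markers mostly to the left.

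Genes that act on the ligands outside the cell did not share 1 direction. Of 10 proteases and cofactors that process the ligands 8 were detected, of which 2 passed 2-fold towards adult and 1 towards E12.5, and 5 passed it in neither direction. Over all detected genes 16.9% passed it towards adult and 29.1% towards E12.5. The median of the list was 0.25 and turned to -0.31 without scaling. The proprotein convertase Pcsk6 gave 611 in adult and 172 at E12.5, 3.56-fold higher in adult, and Pcsk7 was 2.17-fold higher in adult. Pcsk5, a convertase with probe sets in both directions, gave 411 in adult and 1138 at E12.5, 2.77-fold lower in adult. The lysosomal protease Ctsd, which can cut VEGF-C, lay within 2-fold with 3399 in adult and 2111 at E12.5. Of the proteases that release PDGF-C and PDGF-D, tissue plasminogen activator Plat gave 1556 in adult and 1190 at E12.5 with its brightest probe set and a log2 difference of 1.49 averaged over 2, both higher in adult, and Plau and St14 were detected on neither array. These 3 were picked for their roles after their values were seen.

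Of 12 matrix and heparan sulfate genes that bind or hold the ligands 11 were detected, of which 2 passed 2-fold towards adult and 4 towards E12.5, and 5 lay within it. Without scaling these counts were 1 and 7. Under the authors' scaling 16.9% of all detected genes passed 2-fold towards adult and 29.1% towards E12.5. The median of the list was -0.82. The 4 at E12.5 were the VEGF-binding matrix protein Thbs1 (17.5 in adult, called absent, and 115 at E12.5, at least 6.59-fold lower in adult), the proteoglycans Sdc1 (257 in adult and 1563 at E12.5) and Gpc1 (46.5 in adult and 266 at E12.5), and A2m, a plasma protein that binds PDGF (at least 4.65-fold lower in adult). In the intracellular list of adaptors and regulators of receptor tyrosine kinases, all 18 genes were detected on both arrays, none passed 2-fold towards adult, 2 did towards E12.5 and 16 lay within it, with a median of -0.51. The 2 were Spry1, a feedback inhibitor (146 in adult and 358 at E12.5), and the ubiquitin ligase Cbl (422 in adult and 921 at E12.5). Spry2 (937 in adult and 476 at E12.5) and Plcg1 (556 in adult and 1053 at E12.5) came next and lay within 2-fold. Neither of the 2 calls was left with detected probe sets centred on 0, where 3 genes of the list came to lie past 2-fold towards adult, and without scaling 11 of the 18 passed it towards E12.5.

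Vegfa is a textbook target of hypoxia-inducible factors, and the genes of that pathway went in both directions, as did genes as a whole. All 19 listed genes were detected, of which 5 passed 2-fold towards adult and 7 towards E12.5, and 7 lay within it. Over all detected genes 16.9% passed 2-fold towards adult and 29.1% towards E12.5. The median of the list was -0.25 and turned to 0.13 after quantile normalization. Carbonic anhydrase Car9 gave 969 in adult and 85.3 at E12.5, 11.4-fold higher in adult, and Ndrg1 was 6.94-fold higher in adult. The glucose transporter Slc2a1 gave 436 in adult and 2832 at E12.5, 6.50-fold lower in adult like Vegfa, and the kinase Pdk1 was 5.73-fold lower in adult. The factor subunits themselves went in opposite directions, with Epas1 at 2898 in adult and 593 at E12.5 and Hif1a at 1061 in adult and 4374 at E12.5; these were named after their values were seen.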

How the data were processed

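RNA of 1 adult and 1 E12.5 sample was measured on 2 Affymetrix arrays. Per the file headers, the authors deposited a raw signal, which is a linear intensity, and a detection call (other than a measurement: present, marginal or absent) for 45101 probe sets on each. The submitters' processing notes name Affymetrix Expression Console. How probes were summarised is not given in the sources used here, nor is a version. The authors' deposited ratio equalled the adult raw signal over 0.680 times the E12.5 raw signal, within a relative tolerance of 0.0001, for 45023 probe sets, and stood at a floor of 0.01 for the other 78. The series' value table equalled the raw signals within the same tolerance.

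After 64 controls were set aside, 34945 probe sets had 1 gene symbol, 932 several and 9160 none. Symbols came from the platform annotation, updated through RefSeq gene numbers. Probe sets with several symbols named no gene, and none of these held a member. Each gene was represented by its brightest detected probe set (mean of the log2 signals). Differences are log2 adult minus log2 E12.5, with a threshold of 2-fold and no pseudocount. The scripts, run with Python 3.11.15, numpy 2.4.6 and pandas 2.3.3, were tested on simulated data. Members, lists and alternatives were chosen with earlier results of these data known. All members and all genes of the receptor list were named, and from other lists the 4 with the largest difference or bound. The number of arrays limits the precision.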

Additional observations from a re-analysis of the deposited data

How the results depend on the processing

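No paired analysis was possible because each group held 1 array. Under the authors' scaling 5 members passed 2-fold towards E12.5, and the count was 3 with quantile normalization, 3 with detected probe sets centred on 0 and 3 with the 2% trimmed means set equal. These scalings raise adult signals as a whole, and moved the median difference of all genes by 0.23, 0.31 and 0.31 on the log2 scale, and leaving the signals unscaled moved it by -0.56. In the other alternatives the count was between 4 and 7, and Pdgfd was the 1 member past 2-fold towards adult in all 11. The median of the members lay between -1.57 and -0.70. Vegfa, Pdgfra and Pdgfd kept their call in all 11 alternatives, and Pdgfc in the 10 that gave it a value. Pdgfb kept its call in 6 and Pdgfrb in 8. Vegfb stayed within 2-fold in 9 of 10 alternatives and Vegfc in 10 of 11, and both passed it towards E12.5 without scaling. Averaging over probe sets moved Pdgfb to -0.19, and Vegfa to -3.17 with its absent adult signals at their bounds. Without _x_at, _s_at and _a_at probe sets, which may match several transcripts or genes, Pdgfc and Vegfb had no probe set left. Of all 2-fold differences 36.8% lay towards adult in the authors' scaling, 46.3% after quantile normalization, 50.9% with detected probe sets centred, 51.1% with trimmed means set equal and 19.8% without scaling, where 46.5% of genes in place of 29.1% passed 2-fold towards E12.5. Low signals, such as those of Pdgfb, and absent calls limit what these arrays resolve.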

Other observations

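Pdgfrl, a gene that encodes a receptor-like protein with sequence similarity to the PDGF receptors and no kinase domain, was looked at after its values were seen. It gave 10.9 in adult, called absent, and 35.7 at E12.5, called present, and was thus at least 3.27-fold lower in adult. Its probe set was detected at E12.5 alone and at low signal, so this direction follows in part from the detection filter. It adds nothing to the directions of Pdgfra and Pdgfrb.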
